A study of Mus musculus with 6 samples.

Results

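Sp5, Tbx3, Rnf43, Znrf3, Axin2, Lgr5, Nkd1, Notum, Tcf7l2 and Ctnnb1, 10 genes of the Wnt and beta-catenin pathway, were followed in mouse liver 2 h after an oral dose of a compound given in the labels only as CBZ. The array held 15 probes for them, taken as every non-control probe that carried one of these gene names, among 55681 probes in all. The genes were selected on their signal in the CBZ and DMSO arrays, with results of that contrast known, so their values in it are a description and carry no test. Whole liver came from 6 C57BL6/J mice, an inbred laboratory strain, of which 3 received 250 mg/kg CBZ and 3 received dimethyl sulfoxide (DMSO), a solvent. The labels used here name no transgene and no other treatment, and give no sex, no age and no dose of their own for DMSO. Each liver was hybridised to its own 1-colour Agilent array, so precision is limited by the 6 arrays. By the scanner software's own call, the share of spots well above background ran from 42.6% to 45.8% over the 6 arrays.

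In the canonical Wnt pathway, secreted Wnt proteins bind Frizzled and LRP receptors and stop a cytoplasmic complex from degrading beta-catenin, which then enters the nucleus and activates genes together with DNA-binding proteins of the TCF and LEF family. Several of the activated genes are inhibitors of the pathway and form negative feedback loops. In liver the pathway is most active in hepatocytes around the central vein, where endothelial cells release Wnt ligands and R-spondin, and it sets the expression programme of that zone.

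The probes behind the 4 genes with the largest differences under 75th percentile scaling are identified here by their position on mm9, the build of the array design, and by the first 30 of their 60 bases, printed 5′ to 3′ as the files give them. They show which stretch of each gene was read, and each of these genes was read by 1 probe only. No annotation of that build was used, so exons and untranslated regions are not assigned.
Sp5, chr2:70315688-70315747, plus strand: cagagctacagcatggtacgtttctgtaaa
Tbx3, chr5:120134511-120134570, plus strand: ctttatggtgttttggattggtgtactgag
Rnf43, chr11:87548958-87549017, plus strand: ctgaaccagacagaaagatgcttgaatcag
Znrf3, chr11:5180918-5180977, minus strand: actccactggagtctaggcacaacccggga

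Promoter windows were available for 6 of the 10 genes in a RefSeq table of GRCm38.p6, a later build than that of the probes. TCF and LEF proteins bind sequences close to CTTTG followed by AA, AT, TA or TT, and these 4 motifs of 7 letters were searched on both strands of each window of 300 bases. At least 1 match was present in 16.9% of all 32851 windows and at least 2 in 1.94%. The window of Sp5 held 2 matches, with first bases 222 and 104 bases before the start of the gene, and neither overlapped the other. A window of Tcf7l2 held 1 match, 14 bases before its start, and the other 7 windows, of Axin2, Ctnnb1, Nkd1, Rnf43 and Tcf7l2, held none. A match is a description of letters and not evidence of binding. The 250 bases upstream of Sp5, the one gene with 2 matches in its window, are shown with both in capitals.
Sp5, chr2:70474673-70474922, plus strand: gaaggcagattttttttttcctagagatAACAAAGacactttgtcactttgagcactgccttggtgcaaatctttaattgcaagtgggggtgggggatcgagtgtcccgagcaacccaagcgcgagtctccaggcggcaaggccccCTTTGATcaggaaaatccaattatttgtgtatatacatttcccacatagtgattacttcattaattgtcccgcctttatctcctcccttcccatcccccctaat

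The transcription factor genes Sp5 and Tbx3 and the ubiquitin ligase genes Rnf43 and Znrf3 had lower signal in every CBZ mouse than in any DMSO mouse. Tbx3 encodes a T-box factor and is a beta-catenin target in liver. Its signal, given throughout as a multiple of the 75th percentile of the same array, was 6.55, 6.73 and 7.48 in DMSO replicates 1, 2 and 3 and 4.15, 4.29 and 3.66 in CBZ replicates 1, 2 and 3. The groups were far apart, and the mean CBZ signal was 58.2% of the DMSO signal, a log2 difference of -0.78 ± 0.13 (moderated SE, n = 3 mice per group). The spread between mice was small for this gene, with an SD of 0.10 in DMSO and 0.12 in CBZ on the log2 scale. In a bulk sample such as whole liver, fewer cells of a type and less RNA per cell cannot be told apart.

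Rnf43 and Znrf3 encode related membrane ubiquitin ligases that remove Frizzled receptors from the cell surface and so dampen Wnt signalling, and both are themselves Wnt targets. Rnf43 stood at 2.32, 2.53 and 2.35 with DMSO, against 1.46, 1.54 and 1.17 with CBZ. The 3 DMSO values lay close together and CBZ replicate 3 was the lowest of all. The mean in CBZ was 57.5% of that in DMSO, a log2 difference of -0.80 ± 0.14. Znrf3 stood at 0.68, 0.69 and 0.85 with DMSO, against 0.54, 0.55 and 0.61 with CBZ. Here the groups were separate but nearer to each other, with the CBZ mean at 77.2% of DMSO and a log2 difference of -0.37 ± 0.14. The Znrf3 probe was dim. Before background subtraction and scaling its mean intensities overlapped, at 201, 208 and 248 in DMSO and 209, 157 and 210 in CBZ.

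Sp5, which encodes a zinc finger factor of the Sp family that is activated by beta-catenin in many tissues, was also lower with CBZ. Its signal was 0.78, 0.58 and 0.61 with DMSO, against 0.28, 0.41 and 0.31 with CBZ. The highest CBZ mouse was below the lowest DMSO mouse, with the CBZ mean at 50.6% of DMSO and a log2 difference of -0.98 ± 0.18. Of these 4 genes Sp5 alone was not detected throughout, since its probe was well above background on all 3 DMSO arrays and on 2 of the 3 CBZ arrays. It therefore entered the comparison only through the DMSO group, where it was higher. In intensity units the background-subtracted values were 139.7, 101.7 and 105.1 in DMSO and 52.0, 65.1 and 58.8 in CBZ. With normexp background correction, which here adds an offset of 50, the log2 difference was -0.45, smaller than those of Tbx3 and Rnf43 under that correction.

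**Figure D1:**
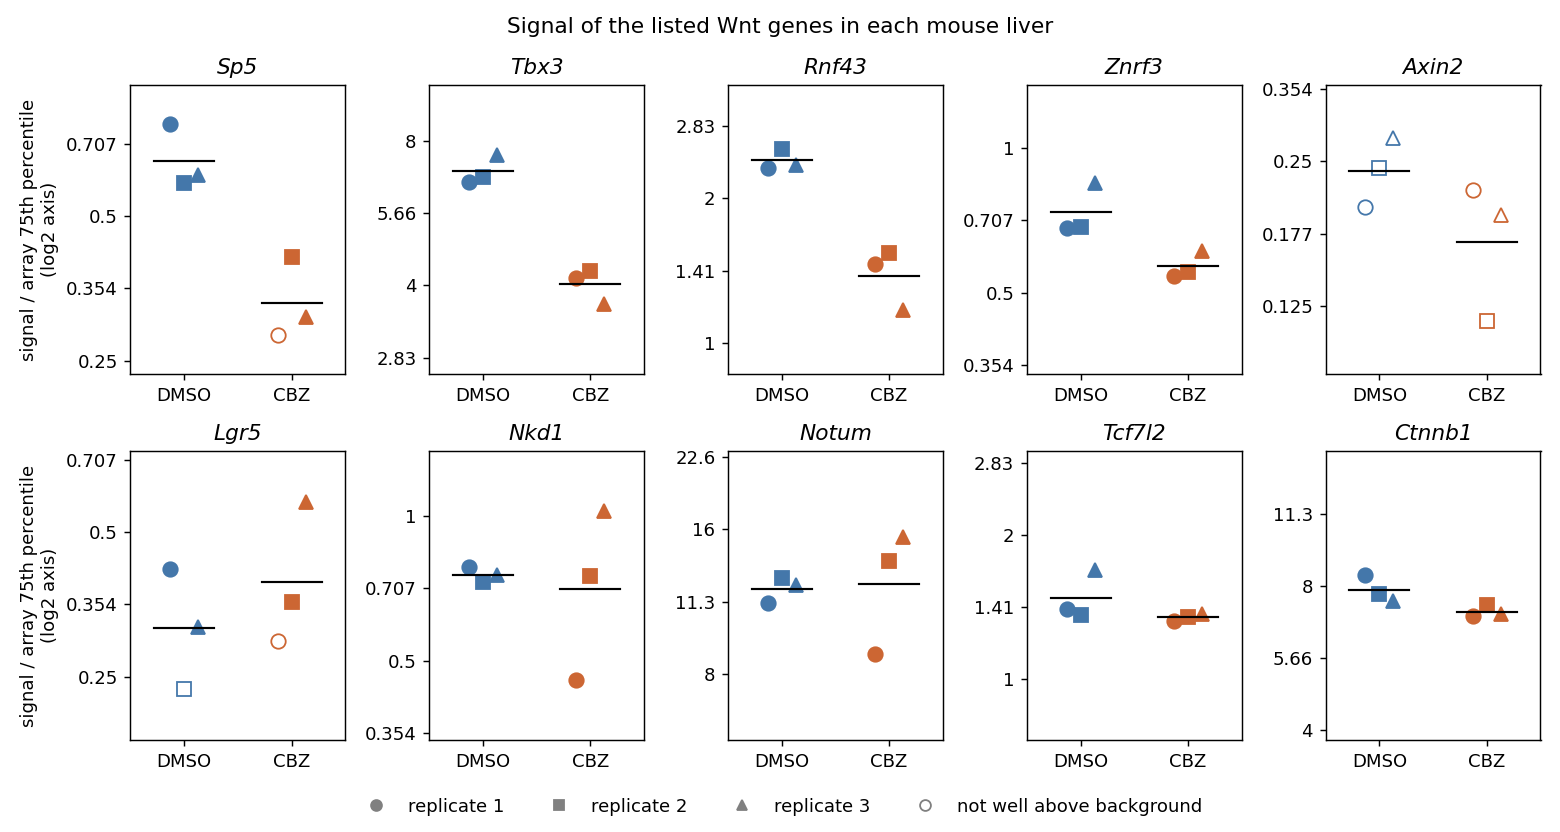
Signal of the brightest kept probe of each gene, or of its brightest probe where none was kept, divided by the 75th percentile of the same array, on a log2 axis that spans the same range in every panel. Each symbol is 1 mouse, open symbols were not well above background and bars are means of the 3 log2 values; Sp5, Tbx3, Rnf43, Znrf3 and Ctnnb1 have all CBZ values below all DMSO values, and CBZ replicate 1 is the lowest mouse for Nkd1 and Notum.

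Other feedback inhibitors did not share that separation of the groups. Notum encodes a secreted enzyme that inactivates Wnt proteins by removing their lipid. Its signal was 11.3, 12.6 and 12.2 with DMSO, against 8.83, 13.8 and 15.4 with CBZ. CBZ replicate 1 was the lowest of the 6 and CBZ replicates 2 and 3 were the highest, so the CBZ mice lay on both sides of the DMSO mice. The log2 difference was 0.04 ± 0.21, with an SD of 0.43 among CBZ mice against 0.09 among DMSO mice.

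Nkd1 encodes a cytoplasmic protein that binds Dishevelled and restrains the pathway. The brighter of its 2 probes gave 0.78, 0.73 and 0.75 with DMSO, against 0.46, 0.75 and 1.02 with CBZ. As with Notum, CBZ replicate 1 was lowest and CBZ replicate 3 highest, and the DMSO mice lay between them. The log2 difference was -0.10 ± 0.26, with an SD of 0.59 in CBZ and 0.05 in DMSO. Nkd1 and Notum thus had the widest spread of the 8 genes measured, with pooled SDs within groups of 0.42 and 0.31, where the median gene had 0.18. No sample label names a slide row, so row was inferred here from part of the array barcode in the file headers. By that reading, CBZ replicate 1 was also the only CBZ array in row 1 of the slide, which held all DMSO arrays. Results with slide row rest on that reading. With row as a covariate, so that only this array is set against the DMSO group, the log2 difference was -0.73 for Nkd1 and -0.45 for Notum. Without CBZ replicate 1 it was 0.21 for Nkd1 and 0.28 for Notum. Row and mouse cannot be told apart in these values.

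Axin2 and Lgr5, widely used as readouts of Wnt activity, were too dim for a comparison. Axin2 encodes a scaffold of the complex that degrades beta-catenin, and neither of its 2 probes was well above background on any array. The signal of the brighter one was 0.20, 0.24 and 0.28 in DMSO and 0.22, 0.12 and 0.19 in CBZ, so the groups overlapped. Lgr5 encodes a receptor for R-spondins, which protect Frizzled receptors from Rnf43 and Znrf3. Its brighter probe gave 0.42, 0.24 and 0.32 in DMSO and 0.30, 0.36 and 0.58 in CBZ, well above background on 2 arrays of each group, and again the groups overlapped. The dimmer probes of Axin2, Lgr5, Nkd1 and Tcf7l2 were well above background on no array.

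For the genes that carry the signal into the nucleus, the mean difference was at most 0.15 on the log2 scale. Ctnnb1, which encodes beta-catenin, was at 8.42, 7.70 and 7.45 with DMSO, against 6.93, 7.29 and 6.97 with CBZ. The groups did not overlap, but the gap was narrow and the CBZ mean was 90.0% of DMSO, a log2 difference of -0.15 ± 0.12. This probe was spotted 2 times on each array, and the spots differed by 0.02 to 0.06 on the log2 scale within an array.

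Tcf7l2 encodes a DNA-binding partner of beta-catenin, and 2 of its 3 probes were kept. The brighter gave 1.40, 1.36 and 1.69 with DMSO, against 1.33, 1.35 and 1.37 with CBZ. The highest CBZ mouse lay just above the lowest DMSO mouse, and the log2 difference was -0.13 ± 0.13. The other kept probe, in a part of the gene nearer to its start, gave -0.15 ± 0.16.

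Of the 10 genes, 8 had a probe well above background on every array of 1 group or both. The mean was lower in CBZ for 7 of these 8, where 50.9% of all genes were lower. In limma's moderated test, Benjamini-Hochberg adjusted over the 22352 probes kept, 0 of the 8 passed an adjusted p of 0.05, where 0.0528% of all 17047 genes measured passed in either direction. In 5 of the 8 the highest CBZ mouse was below the lowest DMSO mouse, as in 6.65% of all genes. The 8, the 7 and the 5 all include Sp5, which entered only through the DMSO group, where it was higher. Since the genes were chosen with this contrast in view, these counts describe them and support nothing further. The number past the threshold was 2, both lower in CBZ, with normexp, where 0.258% of all genes passed as lower, and 2 with an intensity trend and robust variance, where 0.416% did.

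Slide row as a covariate gave log2 differences of -1.20 for Sp5, -0.73 for Tbx3, -0.72 for Rnf43, -0.44 for Znrf3, -0.18 for Ctnnb1 and -0.16 for Tcf7l2, each resting on 1 CBZ array. Leaving out each mouse in turn gave -1.14 to -0.86 for Sp5, -0.83 to -0.71 for Tbx3, -0.88 to -0.68 for Rnf43 and -0.43 to -0.27 for Znrf3. With normexp, Rnf43 was at -0.61 and Znrf3 at -0.21, the latter 1.77 times smaller than above, and Sp5 was 2.20 times smaller. Tbx3 was at -0.70. Array median scaling moved the median of all probes to -0.11, and Tbx3, Rnf43, Sp5 and Znrf3 were then at -0.88, -0.90, -1.08 and -0.47.

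**Figure D2:**
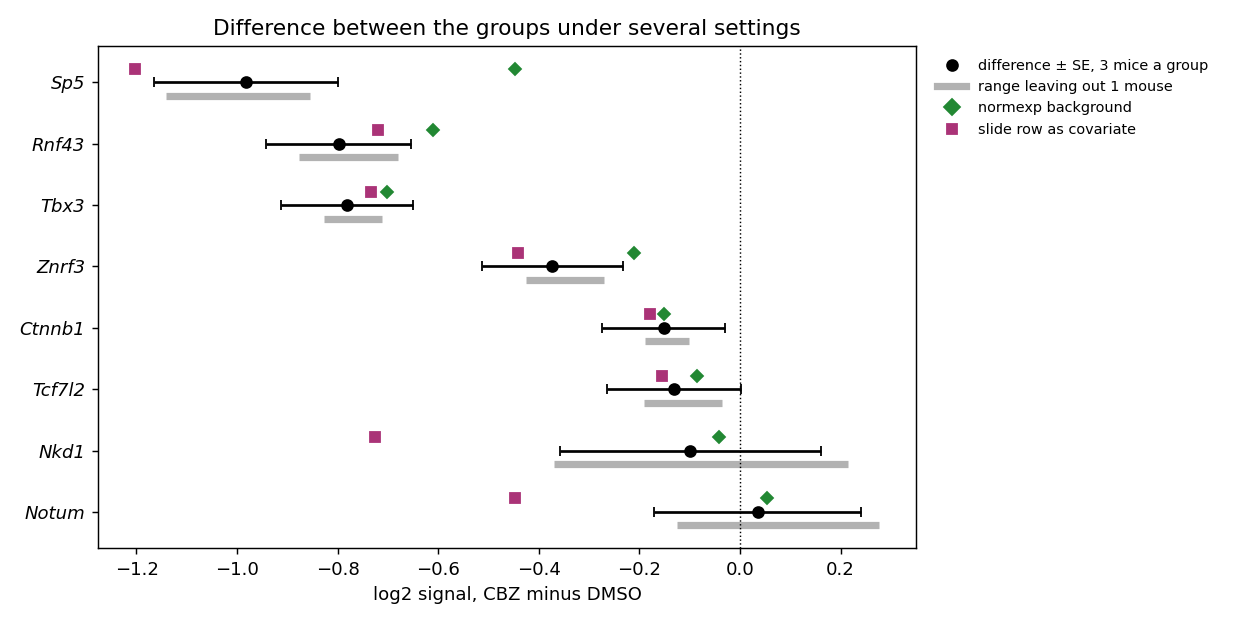
Difference in log2 signal, CBZ minus DMSO, for the 8 genes measured, with black points and bars for the difference ± its moderated SE (3 mice per group), grey bands for the range when 1 mouse is left out, diamonds for normexp and squares for slide row as a covariate. The differences of Sp5, Rnf43, Tbx3, Znrf3, Tcf7l2 and Ctnnb1 lie below 0 in every setting drawn. For all of these except Tcf7l2 the groups do not overlap, so leaving out a mouse cannot change the sign. Nkd1 and Notum change sign between settings.

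The rest of the pathway was read from 6 lists. These, and the zonated and marker lists below, were chosen with earlier results of these data known. Counts and p-values from them are therefore descriptive. The 6 lists held 115 genes, of which 59 were measured. Of these, 1 rose past the threshold and 0 fell, where limma's adjusted p called 8 rises and 1 fall among all genes. The 59 measured genes were lower in 41 cases and higher in 18, where 50.9% of all genes were lower. Their median log2 difference was -0.08 against -0.0043 for all genes. Counts of direction depend on the scaling, since scaling to the array median moved the median of all probes to -0.11. The rise was that of Myc, which encodes a growth-promoting transcription factor and is a Wnt target in other tissues. Myc was at 0.60, 0.44 and 0.60 in DMSO and at 1.79, 1.40 and 1.93 in CBZ, the opposite direction to Tbx3 and Rnf43, with a log2 difference of 1.64 ± 0.18 and an adjusted p of 0.030 in limma. Its adjusted p was over the threshold, at 0.15, with slide row as a covariate, and ran from 0.055 to 0.12 in the 5 of 6 fits without a mouse in which it was over the threshold, all except that without CBZ replicate 1. It was over the threshold too with quantile normalization, with scaling over detected spots and with no filter, and over all alternatives it ran from 4.4e-05 to 0.51. With normexp the log2 difference of Myc was 1.07.

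Among 20 genes described as Wnt targets in other tissues 14 were measured, and apart from Myc none passed. Ccnd1, which encodes cyclin D1, was at 0.94 ± 0.35 and Jun, which encodes an AP-1 subunit, at 0.87 ± 0.36. Single mice set much of both values, since Ccnd1 was at 0.54 without DMSO replicate 3 and Jun at 0.41 without CBZ replicate 3. With slide row as a covariate Jun was at 0.19. Id2, which encodes an inhibitor of helix-loop-helix factors, was at -0.87 ± 0.21, and Prox1, a hepatocyte homeobox gene, at -0.38 ± 0.14. In each of these 4 the groups did not overlap, but they were named for their small p, so this largely follows from their choice. Their adjusted p in limma ran from 0.22 for Id2 to 0.50 for Jun. Of all 14 measured, Myc included, 2 had every CBZ mouse below every DMSO mouse and 3 had every CBZ mouse above. Over all genes 12.9% did not overlap in either direction. An unadjusted p under 0.05 in limma was reached by 5 of the 14, against 8.96% of all genes. With normexp, Id2 was at -0.85 with an adjusted p of 0.033 in limma, and over its alternatives that p ran from 0.033 to 0.88.

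Wnt ligands were mostly dim. Of 25 genes for Wnt proteins, R-spondins and their secretion 7 were measured, 13 were well above background on no array, and 0 passed limma's adjusted p of 0.05, with 1 at an unadjusted p under 0.05, a level that 8.96% of all genes reached. Wnt4 was at 0.54 ± 0.18, Wnt5b at 0.30 ± 0.24 and Wnt9b, which endothelial cells of the liver make, at -0.16 ± 0.15 (limma's adjusted p 0.39, 0.84 and 0.90). Wnt5b was at 0.03 without CBZ replicate 1 and at 0.85 with slide row, where Wnt4 was at 0.21. Wnt2, the other main ligand of those cells, was well above background on no array. Rspo3, the R-spondin of the central vein, was at 0.03 ± 0.22 (a gene singled out once its value was known). Its signal was 1.15, 0.93 and 0.78 with DMSO, against 0.71, 1.08 and 1.16 with CBZ, so the groups overlapped.

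For the receptors, 8 of 17 were measured and 0 passed in limma, with 1 at an unadjusted p under 0.05, against 8.96% of all genes. Fzd8, a Frizzled receptor, was at 1.17, 0.96 and 0.87 in DMSO and at 1.45, 1.31 and 2.04 in CBZ, a log2 difference of 0.66 ± 0.20 with limma's adjusted p at 0.32. Fzd4 was at -0.21 ± 0.16 and Ryk, a Wnt receptor of another family, at -0.18 ± 0.15. Of the secreted and membrane antagonists 2 of 16 were measured, with Dkk3 at 0.27 ± 0.19 and Kremen1 at -0.09 ± 0.15, and 14 were well above background on no array.

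In the cytoplasm, 17 of 20 genes were measured and 0 passed in limma. Of the 17, 1 had an unadjusted p under 0.05 in limma, against 8.96% of all genes. In this list 15 were lower, by at most 0.26 on the log2 scale, against 50.9% of all genes. The casein kinase genes Csnk1e and Csnk1g3 were at 0.37 ± 0.14 and 0.26 ± 0.14, and Csnk1g1 and Csnk1a1 were at -0.26 ± 0.16 and -0.19 ± 0.13. Of the nuclear partners of beta-catenin 11 of 17 were measured and 0 passed in limma. Among the 11, 2 had an unadjusted p under 0.05 in limma and 9 were lower, against 8.96% and 50.9% of all genes. In 3 of the 11 every CBZ mouse was below every DMSO mouse, as in 6.65% of all genes. Tle1, a Groucho corepressor, was at -0.42 ± 0.17 and Pygo2, a coactivator that reads chromatin, at -0.41 ± 0.15, both with groups that did not overlap and with limma's adjusted p at 0.47 and 0.43. The mean over the probes of Tle1 was smaller, at -0.19, and Pygo2 was at -0.27 without CBZ replicate 3. Crebbp, a histone acetyltransferase gene, was at 0.37 ± 0.21 and Tle3 at 0.19 ± 0.18. Lef1, Tcf7 and Tcf7l1, the other genes of the TCF and LEF family, were well above background on no array.

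**Figure D3:**
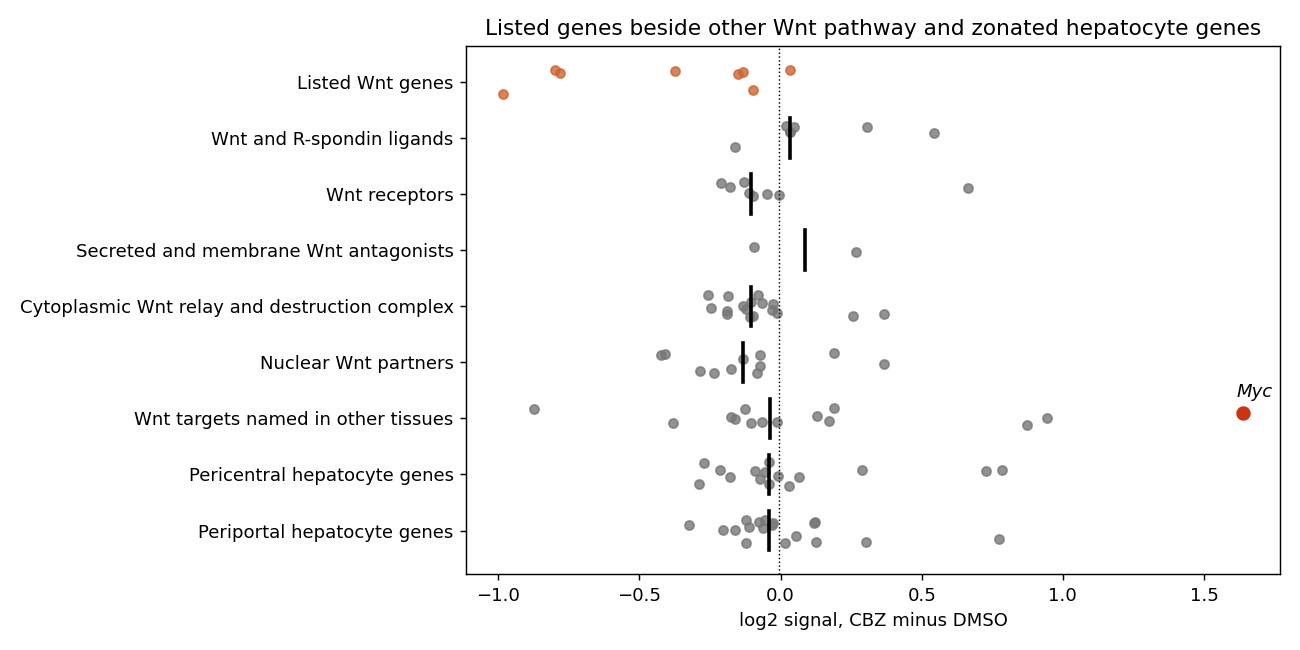
Difference in log2 signal, CBZ minus DMSO, for the 8 listed genes measured (orange) and for the measured genes of each other list (grey, with Myc, past an adjusted p of 0.05 in limma, in red). Each point is a gene, black bars are list medians and the dotted line is the median of all genes; no bar is drawn for the listed genes because they were chosen on this contrast.

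Genes of the zone around the central vein, where beta-catenin is active, were compared with those of the opposite zone around the portal vein. Of 16 pericentral genes 15 were measured and 0 passed limma's adjusted p of 0.05. Of the 15, 5 were higher and 10 lower, with a median log2 difference of -0.04, where 50.9% of all genes were lower. An unadjusted p under 0.05 in limma was reached by 2, against 8.96% of all genes. In 3 of the 15 every CBZ mouse was above every DMSO mouse and in 0 every CBZ mouse was below. Of the 18 periportal genes 2 were separate in each direction, where 12.9% of all genes did not overlap in either direction. Ahr, which encodes the aryl hydrocarbon receptor, was at 0.73 ± 0.15 and Cyp7a1, of bile acid synthesis, at 0.78 ± 0.29, while Gulo, of ascorbate synthesis, was at -0.27 ± 0.18 and the ammonium transporter gene Rhbg at -0.18 ± 0.15. Cyp7a1 was at 0.46 without CBZ replicate 1 and at 1.43 with slide row. Glul, which encodes glutamine synthetase and is the classical pericentral target, singled out once its value was known, was at 75.9, 69.8 and 80.5 in DMSO and 68.4, 85.9 and 62.2 in CBZ, a difference of -0.07 ± 0.15 with overlapping groups. All 18 periportal genes were measured, 0 passed, 7 were higher and 11 lower, with a median of -0.04 as well, and 1 had an unadjusted p under 0.05. G6pc, of glucose release, was at 0.77 ± 0.15, Sds, of serine breakdown, at 0.30 ± 0.14, Pigr, the receptor that carries immunoglobulins, at -0.33 ± 0.15 and Etnppl, a phospholyase gene, at -0.20 ± 0.15. The mean over the probes of Sds was 0.58. Under both normexp and the intensity trend with robust variance, 2 zonated genes passed as higher, Ahr and G6pc, among 58 and 63 rises over all genes.

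Hepatocyte markers were well detected in every mouse. Of 8 listed, 7 were matched to a probe and measured, and their summed signal was 4663 to 4926 in DMSO and 4629 to 5456 in CBZ. Of 11 markers of liver endothelium, the source of Wnt ligands, 10 were measured, with sums of 80.5 to 126.5 in DMSO and 90.6 to 107.8 in CBZ. Sums for Kupffer cell, stellate cell, cholangiocyte and lymphocyte markers overlapped between the groups too, but a sum mostly follows its brightest genes, such as Dcn among stellate markers. By gene, 3 of 7 hepatocyte, 7 of 10 endothelial and 5 of 7 Kupffer cell markers were higher in CBZ. Also higher were 6 of 8 stellate, 3 of 4 cholangiocyte and 4 of 4 lymphocyte markers, where 50.9% of all genes were lower. No marker passed limma's threshold, with 1 stellate and 1 cholangiocyte marker at an unadjusted p under 0.05, against 8.96% of all genes. The part of such cells in the values above was not tested.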

How the data were processed

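Whole liver of 6 mice was measured on 1-colour arrays. Per the file headers, the authors used Agilent Feature Extraction 10.7.3.1, and the deposited files hold a linear intensity per spot, already background-subtracted and detrended. The deposited value table holds a ratio of that intensity to the array's median, as recomputing it showed. Control and outlier spots were left out here. The log2 intensity was scaled to each array's 75th percentile (158 to 191 intensity units, 9.89 to 12.3 times the local background), and spots of a probe were averaged. Probes were kept if well above background on every array of a group (22352). A gene was its brightest kept probe. Other genes were named through RefSeq accessions or symbols, of which 31418 of 55681 probes matched. CBZ was compared with DMSO by limma 3.58.1 in R 4.3.3, tested on simulated data. Each replicate was taken as 1 mouse, from labels that number the whole livers of each group. Members and lists were chosen with earlier results of these data known. Named genes were all members and, in each list, genes past the threshold and the 2 with the smallest p per direction.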

Additional observations from a re-analysis of the deposited data

How the results depend on the processing

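The 8 measured genes had 135 values under alternative settings, of which 128 lay within 1 SD between mice of the value in the report. The other 7 were those of Sp5, Rnf43 and Znrf3 with normexp, Nkd1 and Notum with slide row, and Ctnnb1 at -0.25 with array median scaling and with the authors' table. Many of the 128 were fixed in advance. A change of filter or variance model, or a replicate block, leaves the difference as it is, as does averaging for a gene with 1 kept probe. Leaving out 1 of 3 mice cannot move it by over 1 SD between mice. The authors' table repeats array median scaling, so the count is no measure of stability. Sp5, Tbx3, Rnf43, Znrf3, Tcf7l2 and Ctnnb1 were lower in CBZ in all settings that gave a value, and Sp5 had none under a filter on all 6 arrays. For all of these except Tcf7l2 the groups did not overlap. Leaving out a mouse or adding slide row therefore could not change their sign, so this agreement is no measure of stability either. Notum was lower in 6 of 17 settings and Nkd1 in 16 of 17, all except that without CBZ replicate 1. The number of the 8 past the threshold was 0, 2 with normexp and with the intensity trend, and 1 with array median scaling, the authors' table or a threshold of 0.10. With array median scaling and the authors' table that gene was Sp5, a dim probe that entered only through the DMSO group. With normexp the genes past it were Tbx3 and Rnf43, and Sp5 was then at -0.45. The wider pathway count was 1, 2 with normexp, 0 with quantile normalization, scaling over detected spots, no filter or slide row, and 0 to 1 leaving out a mouse. Zonated genes past it numbered 0, and 2 with normexp and with the intensity trend. Over all genes the count was 9, against 102 with normexp, 89 with array median scaling and with the authors' table, whose moderated tests use a variance common to all probes, 134 with the intensity trend, 30 with a filter on all arrays, 4 with quantile normalization and with slide row, 3 with scaling over detected spots, 0 with no filter, 42 at a threshold of 0.10, and 0 to 21 leaving out a mouse. Of the 29 other pathway and zonated genes named, 25 moved by over 1.5 times under at least 1 alternative, all except Ahr, G6pc, Id2 and Prox1. Kremen1 ran from -0.18 to 0.0080 leaving out a mouse, above 0 without CBZ replicate 1. The replicate numbers are shared between the groups. Deviations of same-numbered mice correlated at -0.24, 0.02 and 0.18, and those of mice with unlike numbers at -0.35 to 0.38. With 3 mice per group these values cannot decide whether the numbers pair the mice. With a replicate block 7 genes passed in all, 1 in the wider pathway, 0 zonated and 0 of the 8. Such a block cannot change a difference in this balanced design, only its SE, which was 0.20 for Sp5. These values are limited by signal over background for dim probes such as Sp5 and Znrf3, and by 3 mice per group.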
